A study of Mus musculus with 6 samples.

Results

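The genes described here encode complex II, complex III, cytochrome c and the ATP synthase (complex V) of the mitochondrial inner membrane. They were taken from the deposited gene table by name: every gene whose symbol starts with Sdh, Uqcr or Atp5, together with Cyc1, Cycs and Atpif1. The rule found 35 of the 14133 genes in the table. They are 4 subunits and 4 assembly factors of complex II, 9 subunits of complex III, cytochrome c, 15 ATP synthase subunit genes, and a pair of genes around the ATP synthase, its inhibitor Atpif1 and the coupling factor Atp5s. All 35 were tested. Their recovered reads ran from 36 to 136454 per gene and library.

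The RNA was extracted from the heart of 1 month old animals of strain C57BL/6. The 3 control libraries (replicates 3, 4 and 5) carried the genotype Trx1 flox/flox, with loxP sites in both alleles of the thioredoxin-1 gene (Txn1). The 3 libraries labelled knockout (replicates 6, 7 and 8) carried Trx1 flox/flox/MHC-Cre, which adds a Cre transgene under the cardiomyocyte-active Myh6 promoter to those alleles. Cells other than cardiomyocytes would keep the gene, and their RNA is in the same libraries. The sources do not say whether each library is a separate animal, so the p-values measure the spread between these samples, which may be technical.

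In the respiratory chain, complex II (succinate dehydrogenase) takes electrons from succinate to ubiquinone, and is also an enzyme of the citric acid cycle. Complex III passes electrons from ubiquinol to cytochrome c, a small soluble carrier, and pumps protons. The ATP synthase lets the protons back through a rotating ring of c subunits, and the rotation drives ATP formation in its catalytic head. Heart muscle depends on this pathway for nearly all of its ATP, and mitochondria fill much of a cardiomyocyte's volume. The subunits encoded by mitochondrial DNA are not members of this set.

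Values are log2 CPM, read counts scaled to library size, as deposited. From them 13705281, 9257984 and 10314636 reads were recovered for controls 3, 4 and 5, and 8961708, 10236783 and 8347636 for labelled knockouts 6, 7 and 8. Txn1 itself (chromosome 4, 57943373 to 57956411, mm10) was 6.89 ± 0.22 log2 CPM in the controls and 6.99 ± 0.12 in the libraries labelled knockout (SD, n = 3 each), a log2 difference of 0.10 (95% interval -0.22 to 0.42, limma adjusted p = 0.72). It was not lower, so the labels are not checked by it, and every direction below is that of the libraries labelled knockout against the controls. Labelled knockout 8 stood apart from the other libraries of its group: for 25 of the 34 members that were lower on average, it was the one nearest to the control mean.

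RNA of nearly all of these genes was lower in the hearts labelled knockout. Of the 35 members, 24 fell, 1 rose and 10 did not pass the test (limma with a trend, Benjamini-Hochberg over 12516 genes, adjusted p under 0.05). Over all tested genes 4.87% fell and 4.79% rose. The median log2 difference of the members was -0.66, against -0.01 over all tested genes, and 34 of the 35 differences were negative. The 3 labelled knockout values lay wholly below the 3 control values for 31 members, as they did for 16.2% of all tested genes, and wholly above them for 1 member, Atpif1, as for 14.4% of all tested genes. Together the members took 4.32%, 4.33% and 4.46% of the recovered reads in controls 3, 4 and 5. In labelled knockouts 6, 7 and 8 they took 2.92%, 2.80% and 3.60%, so the groups did not overlap and library 8 was the highest of its group.

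**Figure D1:**
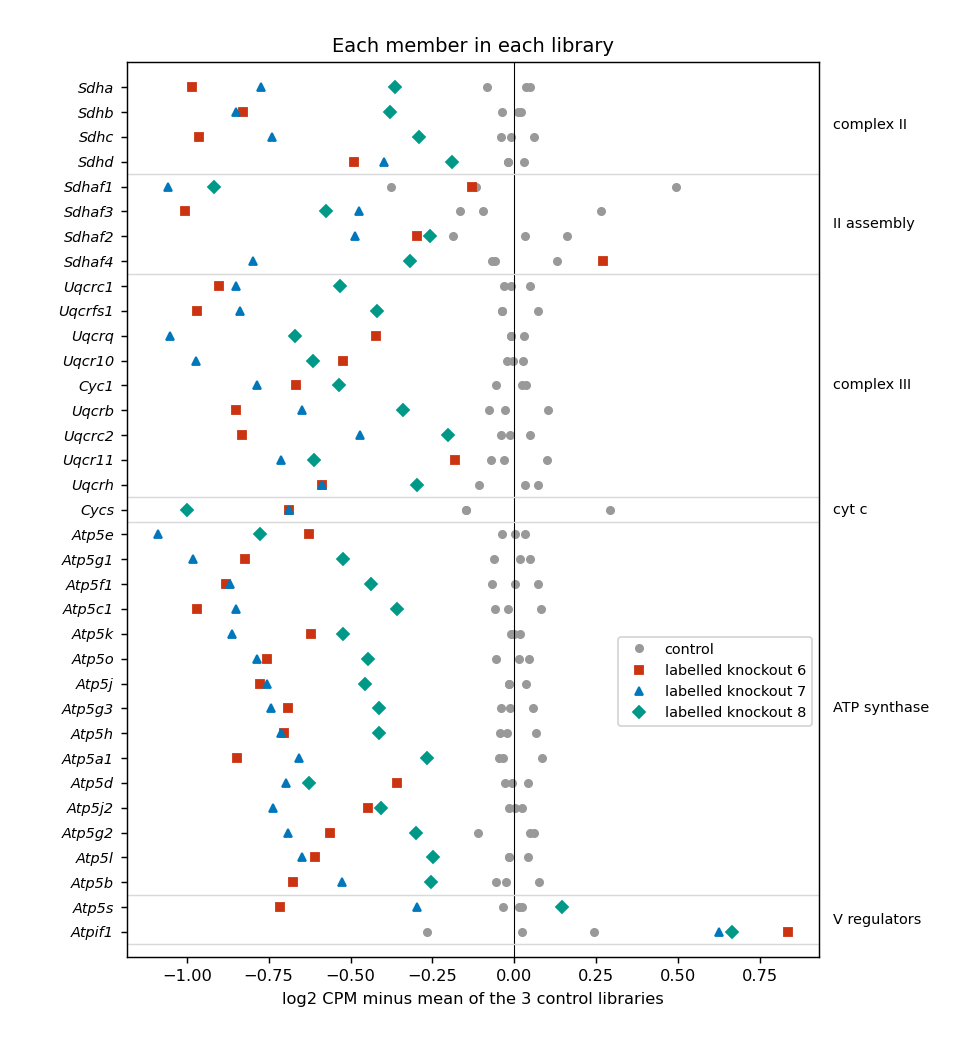
Each point is the log2 CPM of a gene in a library minus the mean of the 3 controls, with genes on the vertical axis grouped by complex. The 3 labelled knockout points lie left of all control points for 31 genes and right of them for Atpif1 alone, and library 8 (diamonds) is the nearest to the controls for 25 of the 34 genes that were lower on average.

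Markers of the cell types of the heart moved alongside. The summed level of 17 cardiomyocyte genes lay between 172008 and 187818 CPM in the controls and between 109502 and 147413 CPM in the libraries labelled knockout. Of the 17, 6 fell and 0 rose, and the list's median log2 difference was -0.61. After quantile normalization the list's median was -0.21 and 4 fell. Tcap, a titin-binding protein of the Z-disc, fell by 1.17 on the log2 scale. Tnni3, cardiac troponin I, fell by 1.01 (not past the test without control 5). The other 11 did not pass. All labelled knockout values lay below all controls for 10 of the 17, as for 16.2% of all tested genes. The rest overlapped between the groups, among them Tnnt2 (0.05), Actn2 (0.15) and Mybpc3 (-0.01). Myh6, which weighs most in the sum (16.06 log2 CPM in the controls), differed by -0.68 and did not pass (limma adjusted p = 0.18). The 11 fibroblast genes summed to between 3474 and 4364 CPM in the controls and between 5621 and 9707 CPM in the others. Of these 6 rose and 0 fell, with Mfap5, a microfibril protein, higher by 2.61 and Pi16 by 1.73 on the log2 scale. With 1 library left out, 1 (without control 5) to 10 (without library 8) cardiomyocyte genes fell and 4 (without control 4) to 7 (without library 8) fibroblast genes rose. Every marker of these lists was detected. The part of these shifts in the results below was not tested, and fewer cardiomyocytes and less of this RNA per cardiomyocyte cannot be told apart in such samples.

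The 9 endothelial genes summed to 1895 to 2020 CPM and 1475 to 1744 CPM, with 1 lower (Kdr, by 1.07, not past the test without control 5), and the 9 macrophage genes to 1024 to 1117 CPM and 1258 to 1429 CPM, with 0 past the test (2 at an unadjusted p under 0.05 in limma, 0 by limma-voom after adjustment). The 8 smooth muscle and pericyte genes overlapped, at 1108 to 1434 and 1192 to 1994 CPM, with 1 lower. That gene, Abcc9, fell by 0.85 (limma adjusted p = 0.023), and with 1 library left out it passed only without library 8. The 4 erythroid genes also overlapped, at 900.2 to 1386 and 807.7 to 1230 CPM. Of the skeletal muscle genes 4 of 7 were under 0 log2 CPM on average, and of the 3 tested Ckm, which the heart also uses, fell and Tnnt3 rose. Ckm did not pass without control 3, 4 or 5, nor Tnnt3 without control 4 or 5 or library 6 or 7. When the libraries were centred on the mean of the cardiomyocyte genes, the median log2 difference of all genes moved to 0.45. On that scale 0 of the 35 members fell, and 4 were lower at an unadjusted p under 0.05 in limma. Atpif1 rose (limma adjusted p = 0.001), as did 3446 of all 12516 tested genes, while 171 fell. The members' median on that scale was -0.20, which is 0.65 below that of all genes.

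Complex II RNA was lower for all 4 subunit genes, 3 of them past the test. Sdha, the flavoprotein that oxidises succinate, was at 11.02, 11.14 and 11.15 log2 CPM in controls 3, 4 and 5 and at 10.12, 10.33 and 10.74 in labelled knockouts 6, 7 and 8. The groups did not overlap, and library 8 was the nearest to the controls. Its log2 difference was -0.70 ± 0.17 (SE), which is 61.4% of the control level (limma adjusted p = 0.020). Sdhb, the iron-sulfur subunit that carries the electrons on, was at 10.41, 10.46 and 10.47 against 9.62, 9.60 and 10.07, and fell by 0.68 ± 0.15 (limma adjusted p = 0.015). Again every labelled knockout value was below every control.

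Of the membrane anchor genes, which hold the complex in the membrane and bind ubiquinone, 1 passed the test. Sdhc was at 8.15, 8.18 and 8.25 log2 CPM in the controls and 7.23, 7.45 and 7.90 in the libraries labelled knockout, and fell by 0.67 ± 0.16 (limma adjusted p = 0.023). Sdhd was at 8.21, 8.26 and 8.21 against 7.74, 7.83 and 8.04, a difference of -0.36 ± 0.13 that did not pass (limma adjusted p = 0.096). For both genes the groups were separate, and whether the pair differed from each other was not tested. Within each library, Sdhb stood to Sdha in much the same ratio: the log2 ratio was -0.65 ± 0.04 in the controls and -0.63 ± 0.12 in the others (SD, n = 3; difference 0.02, exact two-sided permutation p = 0.8, where the smallest possible is 0.1).

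The 4 complex II assembly factors did not pass the test, with 0 also at an unadjusted p under 0.05 and 0 by limma-voom on recovered reads. Sdhaf1, which helps to insert the iron-sulfur clusters of Sdhb, was at 3.98, 3.11 and 3.37 log2 CPM in the controls and 3.36, 2.43 and 2.57 in the libraries labelled knockout, and these values overlap. Its log2 difference of -0.70 had an interval of -1.44 to 0.03. Sdhaf3, which acts with it, differed by -0.68, Sdhaf2, needed for flavin attachment to Sdha, by -0.35, and Sdhaf4, which binds flavinylated Sdha, by -0.28. They are low-level genes, and their intervals also hold differences as large as those of the subunits. In the GENCODE annotation Sdhaf1 shares 69.6% of its exon bases with a gene on the opposite strand. That model is longer than its RefSeq gene, and the share within the RefSeq gene was not measured. The sources used here do not say whether reads were counted by strand. The count of 3 complex II genes rested on the libraries: it was 0 without control 3, 4 or 5 (4 at an unadjusted p under 0.05 each time), 2 without library 6, 1 without library 7 and 4 without library 8.

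Complex III was lower for all 9 genes, and 7 fell. Uqcrfs1, the Rieske iron-sulfur protein that takes the first electron from ubiquinol, was at 10.25, 10.25 and 10.36 log2 CPM in the controls and 9.32, 9.45 and 9.87 in the libraries labelled knockout, and fell by 0.74 ± 0.16 (limma adjusted p = 0.011). Cyc1, the cytochrome c1 subunit that hands the electron to cytochrome c, was at 10.62, 10.63 and 10.54 against 9.93, 9.81 and 10.06, and fell by 0.66 ± 0.13 (limma adjusted p = 0.0089). These are the nuclear-encoded subunits with redox centres, and in both every labelled knockout value was below every control. Neither passed without control 3, 4 or 5 (limma adjusted p up to 0.080 for Uqcrfs1 and 0.072 for Cyc1).

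The core proteins form the matrix side of the complex, and 1 of the pair passed the test. Uqcrc1 was at 11.23, 11.21 and 11.29 log2 CPM in the controls and at 10.34, 10.39 and 10.71 in the libraries labelled knockout. It fell by 0.76 ± 0.15, to 58.9% of control, the largest difference of the complex (limma adjusted p = 0.0076). Uqcrc2 was at 10.62, 10.65 and 10.71 against 9.83, 10.19 and 10.46, a difference of -0.50 ± 0.16 that did not pass (limma adjusted p = 0.075). The groups were separate for both genes, and whether their changes differ was not tested.

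Of the 5 small subunits, which surround the catalytic core, 4 fell. Uqcrq fell by 0.71, Uqcr10 by 0.70, Uqcrb by 0.61 and Uqcrh, the hinge protein near cytochrome c1, by 0.49 on the log2 scale. Uqcr11 differed by -0.50 and did not pass (limma adjusted p = 0.058). Of these genes, 3 had another order of libraries: in Uqcrq the labelled knockout values were 8.80, 8.17 and 8.55 log2 CPM for libraries 6, 7 and 8, so that library 6 was the nearest to the controls, as it was for Uqcr10 and Uqcr11. Of the 7 complex III calls, 1 was left without control 3 and 0 without control 4 or 5, where all 9 genes still had an unadjusted p under 0.05. Without library 6, 7 or 8 there were 7, 5 and 8.

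Cytochrome c RNA (Cycs, the form of somatic cells) was at 9.53, 9.97 and 9.53 log2 CPM in controls 3, 4 and 5 and at 8.99, 8.99 and 8.68 in labelled knockouts 6, 7 and 8. The groups were separate, control 4 was the highest, and library 8 was here the lowest of its group, the only one of the 34 lower members for which that was so. The mean went from 9.68 ± 0.26 to 8.89 ± 0.18 (SD, n = 3), and RNA fell by 0.79 ± 0.16, to 57.8% of control (limma adjusted p = 0.0083). Without control 4 the difference was -0.64 and did not pass (limma adjusted p = 0.068). Against Cyc1, its electron donor, the log2 ratio was -0.92 ± 0.23 in the controls and -1.05 ± 0.30 in the others (SD, n = 3; difference -0.13, exact two-sided permutation p = 0.6), so the pair did not part beyond the spread. The mouse genome annotation holds 4 further genes at least 95% identical to Cycs over 200 bases or more, and reads of such copies could be counted with it.

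Genes of this pathway are known to be driven by NRF1, by ETS-family factors such as GABP and by the oestrogen-related receptors (ERR). Promoters of 29 members were found in RefSeq (GRCm38.p6), and the 250 bases before the start were searched on both strands. The NRF1 core GCATGCGC was present in 5 of the 29 members (Atp5g2, Atp5k, Atp5l, Cycs and Sdhb, 17.2%), against 4.93% of 9959 tested genes with a promoter and 2.56% of all 27025. The ETS core CCGGAAG was in 9 members (31.0%; 15.4% of tested genes), the ERR half-site AAGGTCA in 3 (10.3%; 3.40%) and the YY1 core AAGATGGC in 1 (3.45%; 2.34%). A match describes these letters and shows no binding. The promoters of an electron carrier, a complex II subunit and a pair of c-subunit genes are given here 5′ to 3′ on the gene's strand, ending at the base before the start, with NRF1 cores, or for Atp5g3 the ERR half-site on the other strand, in capitals. Cycs lies at chr6:50566570-50566819 (minus strand), Sdhb at chr4:140961021-140961270 (plus), Atp5g2 at chr15:102671048-102671297 (minus) and Atp5g3 at chr2:73911327-73911576 (minus). The Atp5g3 window lies inside the RefSeq span of the gene (73908447 to 73912464), so it precedes a start within that span and not the outermost one.
Cycs: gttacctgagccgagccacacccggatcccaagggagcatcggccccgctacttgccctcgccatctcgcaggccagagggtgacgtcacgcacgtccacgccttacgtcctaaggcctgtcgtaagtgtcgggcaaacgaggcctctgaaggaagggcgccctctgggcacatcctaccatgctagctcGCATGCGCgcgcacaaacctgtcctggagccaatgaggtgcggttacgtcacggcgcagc
Sdhb: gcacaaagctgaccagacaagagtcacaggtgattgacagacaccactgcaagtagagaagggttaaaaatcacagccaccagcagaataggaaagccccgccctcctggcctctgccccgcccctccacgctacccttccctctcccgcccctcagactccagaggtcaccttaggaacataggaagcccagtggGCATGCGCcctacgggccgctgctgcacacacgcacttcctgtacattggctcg
Atp5g2: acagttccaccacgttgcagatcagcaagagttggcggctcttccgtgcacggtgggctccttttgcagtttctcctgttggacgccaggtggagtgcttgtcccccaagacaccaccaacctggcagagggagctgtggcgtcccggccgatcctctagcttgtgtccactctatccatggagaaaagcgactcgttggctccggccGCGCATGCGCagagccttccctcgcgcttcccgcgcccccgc
Atp5g3: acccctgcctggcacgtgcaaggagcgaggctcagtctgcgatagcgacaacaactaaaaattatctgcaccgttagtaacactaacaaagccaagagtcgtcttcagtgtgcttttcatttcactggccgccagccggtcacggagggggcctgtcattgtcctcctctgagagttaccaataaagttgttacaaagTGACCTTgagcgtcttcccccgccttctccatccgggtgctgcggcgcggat
The NRF1 core begins 60 bases before the start in Cycs and 54 in Sdhb. In Atp5g2 the palindrome-like run gives a pair of overlapping matches, at 42 and 40 bases. Cycs, Sdhb and Atp5g2 fell by 0.79, 0.68 and 0.52 and Atp5g3, which has an ERR half-site and no NRF1 core in this window, by 0.61. Atp5k and Atp5l, the other members with an NRF1 core, fell by 0.67 and 0.50. Atp5g1 and Uqcrc1, whose windows held none of the 4 motifs, fell by 0.78 and 0.76, the largest falls of the c ring and of complex III. Whether a motif goes with the size of a fall was not tested.

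ATP synthase RNA was lower for all 15 subunit genes, and 13 fell. The median log2 difference was -0.61, with a range of -0.83 to -0.48, and in all 15 the labelled knockout values lay wholly below the controls. These genes took 2.94%, 2.93% and 3.07% of the reads in the controls and 2.001%, 1.93% and 2.50% in libraries 6, 7 and 8. By portion of the enzyme, 3 of 5 genes of the head and central stalk fell, 4 of 4 of the peripheral stalk, 3 of 3 of the c ring and 3 of 3 of the small membrane subunits.

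In the catalytic head and central stalk, the genes with the most RNA were the ones that did not pass. Atp5b, the catalytic beta subunit, was at 13.30, 13.33 and 13.43 log2 CPM in the controls and 12.68, 12.83 and 13.10 in the libraries labelled knockout, a difference of -0.48 ± 0.19 (95% interval -0.90 to -0.07, limma adjusted p = 0.14). Atp5a1, the alpha subunit, was at 12.84, 12.83 and 12.96 against 12.03, 12.22 and 12.61, a difference of -0.59 ± 0.19 (limma adjusted p = 0.074). Neither gene's groups overlapped, and in limma-voom on recovered reads all 15 subunit genes fell.

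Of the stalk that turns inside the head, the gamma subunit gene Atp5c1 fell by 0.73, the delta subunit gene Atp5d by 0.56 and the epsilon subunit gene Atp5e by 0.83 on the log2 scale. Atp5e was at 8.57, 8.53 and 8.60 log2 CPM in the controls and 7.94, 7.48 and 7.79 in libraries 6, 7 and 8, with an SE of 0.14 (limma adjusted p = 0.0035). It was the largest difference of any member, 56.2% of control. Here library 7 was the lowest and library 6 the highest of the group.

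All 4 genes of the peripheral stalk, which holds the head still, fell by similar amounts. The log2 falls were 0.73 for Atp5f1 (subunit b), 0.61 for Atp5h (subunit d), 0.66 for Atp5j (coupling factor F6) and 0.66 for Atp5o (the oligomycin sensitivity protein), with limma adjusted p between 0.0090 and 0.015. The small membrane subunits, which help enzymes to pair in the cristae, fell as well, Atp5k (subunit e) by 0.67, Atp5j2 (subunit f) by 0.53 and Atp5l (subunit g) by 0.50. Atp5l has 9 near-identical copies in the annotation and Atp5h 4, at 95% identity over 200 bases or more.

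The c ring is encoded by 3 genes, Atp5g1, Atp5g2 and Atp5g3, whose targeting peptides differ while the mature subunit is the same. Over the last 225 coding bases the annotated transcripts encode the same amino acids in all 3 genes, yet differ at 34 bases between Atp5g1 and Atp5g2, 45 between Atp5g1 and Atp5g3 and 48 between Atp5g2 and Atp5g3. The first 120 of these bases are shown because they let reads of the genes be told apart, with capitals where the 3 genes are not all the same.
Atp5g1: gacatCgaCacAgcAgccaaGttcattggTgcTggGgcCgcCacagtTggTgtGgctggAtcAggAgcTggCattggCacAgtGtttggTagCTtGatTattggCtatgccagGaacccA
Atp5g2: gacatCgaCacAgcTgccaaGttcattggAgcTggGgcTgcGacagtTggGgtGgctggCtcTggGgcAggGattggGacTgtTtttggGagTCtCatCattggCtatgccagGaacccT
Atp5g3: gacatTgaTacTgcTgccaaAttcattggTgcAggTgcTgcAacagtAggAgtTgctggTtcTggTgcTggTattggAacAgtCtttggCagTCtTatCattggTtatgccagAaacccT
Atp5g1 was at 10.15, 10.04 and 10.12 log2 CPM in the controls and 9.28, 9.12 and 9.58 in the libraries labelled knockout, and fell by 0.78 ± 0.14 (limma adjusted p = 0.0059). Atp5g3 was at 11.01, 11.04 and 11.11 against 10.36, 10.31 and 10.64, and fell by 0.61 ± 0.14 (limma adjusted p = 0.019). Atp5g2 was at 8.07, 8.23 and 8.24 against 7.62, 7.49 and 7.88, and fell by 0.52 ± 0.14 (limma adjusted p = 0.034). None of the 3 genes overlapped between groups.

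Per kilobase of transcript, Atp5g3 made up most of the c-subunit RNA in every library, between 78.3% and 78.7% in the controls and between 78.4% and 79.5% in the others. Atp5g1 went from between 10.6% and 11.7% in the controls to between 9.40% and 10.2%, and Atp5g2 from between 10.03% and 11.02% to between 11.1% and 11.5%. The Atp5g1 to Atp5g3 log2 ratio was lower by 0.16 in the libraries labelled knockout without overlap (-0.95 ± 0.08 and -1.11 ± 0.07, SD, n = 3; exact two-sided permutation p = 0.1, the smallest possible, 0.25 adjusted over 5 gene pairs). The Atp5g2 to Atp5g3 ratio differed by 0.10 with overlap (exact permutation p = 0.2, 0.33 adjusted). Per kilobase Atp5g3 ranked first in all 6 libraries, while Atp5g1 was above Atp5g2 in controls 3 and 5 and below it in control 4 and in libraries 6, 7 and 8. That order of Atp5g1 and Atp5g2, and the size of all these shares, rest on the lengths used. These were 2655.5 bases for Atp5g1, most of its RefSeq span (96072793 to 96075694), 731 for Atp5g2 and 718.5 for Atp5g3. By CPM the share of Atp5g3 was between 59.5% and 61.0% in the controls and between 61.4% and 63.4% in the others. That of Atp5g1 was between 30.5% and 32.8% in the controls and between 27.7% and 29.5% in the others. By CPM Atp5g1 was above Atp5g2 in all 6 libraries.

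The count of 13 ATP synthase genes that fell was 4 without control 3 and 2 without control 4 or 5, each time with 14 at an unadjusted p under 0.05. It was 11, 7 and 15 without libraries 6, 7 and 8, and 6 after quantile normalization. Atp5e and Atp5g1 were the only ones of the 25 called members that passed with any 1 of the 6 libraries left out, with limma adjusted p up to 0.035 and 0.0496.

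**Figure D2:**
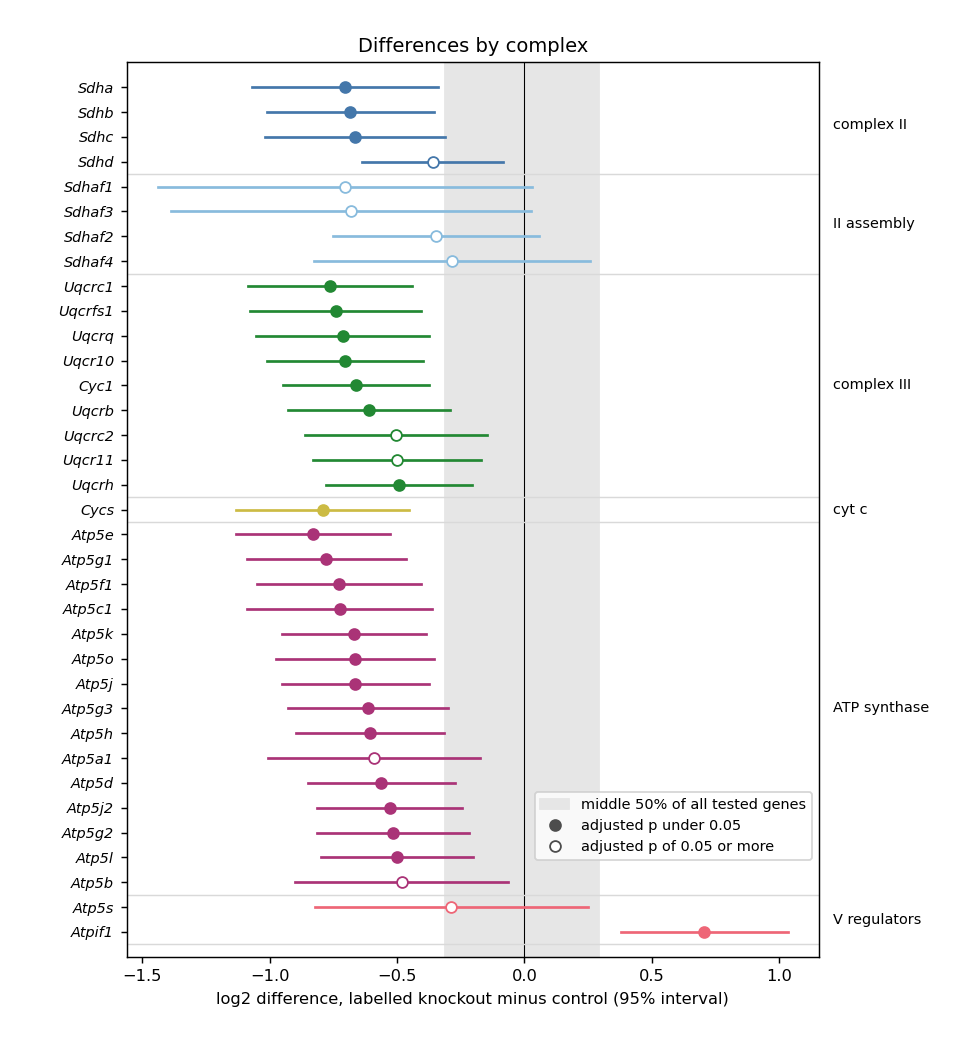
Points are log2 differences (labelled knockout minus control) from limma with 95% intervals, filled where the adjusted p was under 0.05, and the grey band holds the middle 50% of all tested genes (-0.31 to 0.29). Every complex II, complex III and ATP synthase subunit lies to the left of the band, between -0.83 and -0.36, while Atpif1 lies to its right at 0.71.

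Atpif1 went the other way. It encodes the inhibitory factor that binds the ATP synthase head when the proton gradient collapses and stops it from hydrolysing ATP. Its RNA was at 6.93, 6.64 and 7.15 log2 CPM in controls 3, 4 and 5 and at 7.74, 7.53 and 7.57 in labelled knockouts 6, 7 and 8. All 3 labelled knockout values were above all 3 controls, and library 8 was as high as library 7. The mean rose from 6.91 ± 0.26 to 7.61 ± 0.11 (SD, n = 3), a log2 difference of 0.71 ± 0.15 (95% interval 0.38 to 1.03), or 163% of control (limma adjusted p = 0.012). It was not past the test without control 3 (0.72, limma adjusted p = 0.055) or control 4 (0.57, limma adjusted p = 0.087).

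Against the catalytic subunit Atp5b, to which its product binds, the log2 ratio of Atpif1 was -6.38, -6.70 and -6.28 in the controls and -4.94, -5.30 and -5.54 in libraries 6, 7 and 8. The ratio was higher by 1.19 without overlap (exact two-sided permutation p = 0.1, the smallest possible, 0.25 adjusted over 5 pairs). In the GENCODE annotation an antisense gene, Gm12999, covers 33.7% of the exon bases of Atpif1 on the opposite strand. Without strand its reads there cannot be told apart from those of Atpif1. Atp5s, the coupling factor B gene, was at 4.11, 4.17 and 4.16 log2 CPM in the controls and spread over 3.43, 3.85 and 4.29 in the others, a difference of -0.29 ± 0.25 (limma adjusted p = 0.52).

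**Figure D3:**
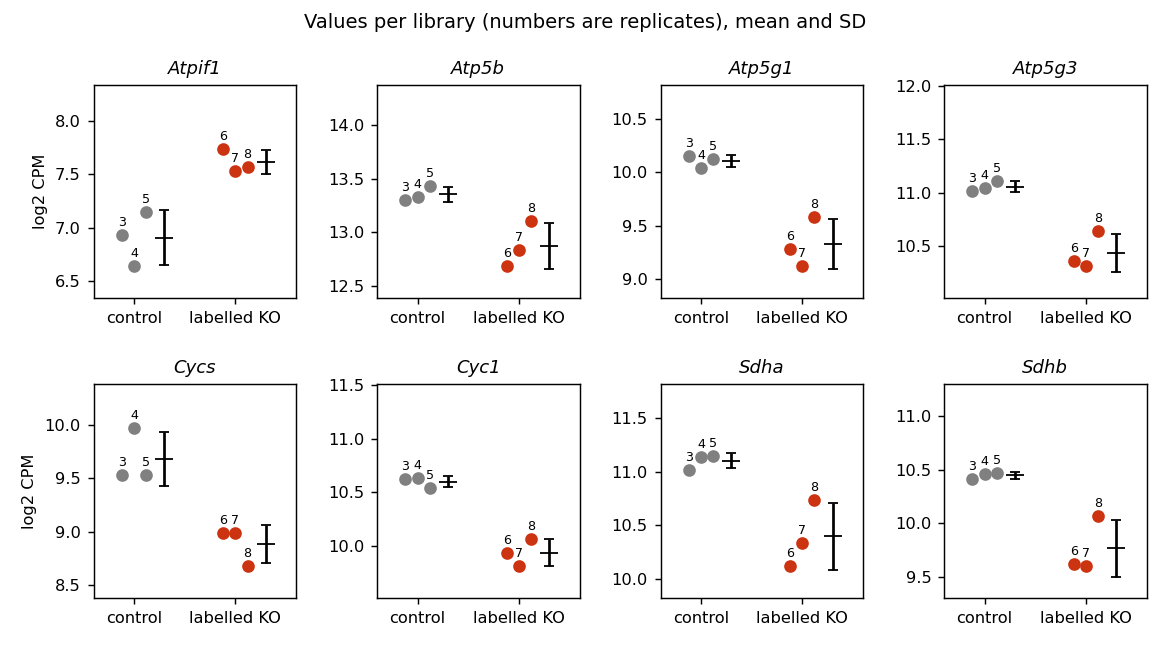
Log2 CPM of 8 genes in each library (points, with replicate numbers), with the mean and SD of the 3 libraries of each group beside them, on axes of equal height. Atpif1 rises from 6.91 to 7.61 while the other 7 are lower, with library 8 the highest of its group in 6 of them and the lowest in Cycs.

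Per kilobase of transcript, the order of the members in the controls ran from Atp5b at 12.42 log2 CPM per kb, through Atp5a1 at 11.57 and Atp5g3 at 11.53, to Atp5o at 10.96, Atp5h at 10.66 and Uqcrc1 at 10.52. Atp5a1 and Atp5g3 differed by less than their SDs (0.07 and 0.05). Cycs at 8.03 and Sdhd at 7.93 also lay within the SD of Cycs (0.26). By the lengths used, the lowest were Sdhaf2 at 3.27, Sdhaf1 at 2.17 and Sdhaf3 at 0.81. The length used for Sdhaf1, 2490 bases, is longer than its RefSeq gene (chromosome 7, 30321409 to 30322375). Its value is therefore too low if the RefSeq gene was counted, and its place against Sdhaf2 and Atp5s (3.58) is not settled. In the libraries labelled knockout 16 of the 35 members had the same rank, and the largest move was that of Atpif1, from rank 29 to rank 23.

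The libraries labelled knockout varied more than the controls in these genes. The range over 3 libraries was wider in the labelled knockout group for 32 of 35 members, with a median of 0.44 against 0.11 log2 units. The ranges were not taken over all tested genes, so this is not shown to be particular to the members. The median difference of the members from the control mean was -0.68, -0.74 and -0.41 in libraries 6, 7 and 8. For complex II subunits it was -0.89, -0.76 and -0.33, for complex III -0.66, -0.78 and -0.53 and for ATP synthase subunits -0.69, -0.74 and -0.41. Library 7 was farthest below the controls for 18 of the 34 lower members, library 6 for 15 and library 8 for 1.

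Library 6 was the nearest to the controls for 8 of them, Atp5d, Atp5e, Sdhaf1, Sdhaf4, Uqcr10, Uqcr11, Uqcrq and Cycs. Across the 35 members, the deviation of library 6 from the other libraries of its group went with shorter transcripts (Spearman rho with length -0.40) and higher GC content (0.47), and over all tested genes these were -0.22 and 0.35. Control 3 had similar values among the members (-0.44 and 0.42), but over all tested genes these were only -0.07 and 0.16. Genes are not independent replicates, members share a library, and the part of length and GC content in the results was not tested. With the differences corrected for length and GC content, an alternative chosen after seeing the data, 21 members fell and Atpif1 rose. In that fit 761 of all 12430 genes fell and 688 rose.

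The assembly and accessory genes of these complexes were examined as lists. Of 6 ATP synthase assembly and associated genes, 4 fell and 0 rose, with a median log2 difference of -0.61. Fmc1, whose yeast counterpart is needed to assemble the head, was at 6.66 ± 0.05 log2 CPM in the controls and 5.28 ± 0.29 in the libraries labelled knockout (SD, n = 3). It fell by 1.37 ± 0.17, to 38.6% of control (limma adjusted p = 0.00068), and passed with any 1 library left out. Usmg5, a small protein of the enzyme's membrane sector, fell by 0.72, Atpaf2, a chaperone of the alpha subunit, by 0.65 and Tmem70, which helps to build the c ring, by 0.58. With 1 library left out, Usmg5 did not pass without control 4, and Atpaf2 and Tmem70 passed only without library 8. Atpaf1, the chaperone of the beta subunit, was at 5.31 ± 0.09 and 5.25 ± 0.41.

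Of 6 complex III assembly genes 1 fell, Uqcc1, by 0.66 (limma adjusted p = 0.014, and not past the test without control 3, 4 or 5). Their median log2 difference was -0.30. Of 9 tested genes of cytochrome c maturation and the apoptosome 2 fell and 0 rose, with a median of -0.0028. Hccs, which attaches haem to cytochrome c and c1, fell by 0.94 ± 0.16 to 52.0% of control (limma adjusted p = 0.0036) and passed with any 1 library left out. Aifm1, a flavoprotein of the intermembrane space, fell by 0.54, and with 1 library left out it passed only without library 8 (limma adjusted p up to 0.14). Bak1 and Bax, which open the outer membrane to cytochrome c, differed by 0.55 and 0.34 and did not pass (limma adjusted p = 0.099 and 0.25).

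Of 7 genes that bring phosphate in and carry ATP out, 2 fell. Slc25a3, the phosphate carrier, fell by 0.63 and Ckmt2, the mitochondrial creatine kinase of muscle, by 0.71, and both passed only without library 8 when 1 library was left out. Slc25a4, the ADP/ATP carrier of heart and muscle, differed by -0.64 (limma adjusted p = 0.066), while Slc25a5, the form of many other tissues, differed by 0.06 (limma adjusted p = 0.82). Whether these carriers differ from each other in their change was not tested.

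The other complexes of the chain had lower RNA too. Of 36 complex I genes 28 fell, with a median log2 difference of -0.57, and of 14 complex IV genes 10 fell, with a median of -0.66. With 1 library left out these counts were 9, 5 and 5 without controls 3, 4 and 5 and 25, 17 and 33 without libraries 6, 7 and 8 for complex I, and in the same order 5, 6, 4, 9, 7 and 11 for complex IV. The 13 subunit genes of the vacuolar ATPase, a rotary enzyme of lysosomes built on the same plan as the ATP synthase, had a median of 0.24. Of them 0 passed the test (4 higher at an unadjusted p under 0.05 in limma, and 0 past the test by limma-voom), 11 were higher on average and 2 lower. Of 12 transcription factors and coactivators of respiratory genes, 2 fell, Ppargc1b by 0.86 and Esrra by 0.54, and the median was -0.12. Tfam differed by -0.51 and Ppargc1a by -0.40, and neither passed (limma adjusted p = 0.13 and 0.41). Ppargc1b and Esrra passed in 2 of the 6 fits with 1 library left out.

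**Figure D4:**
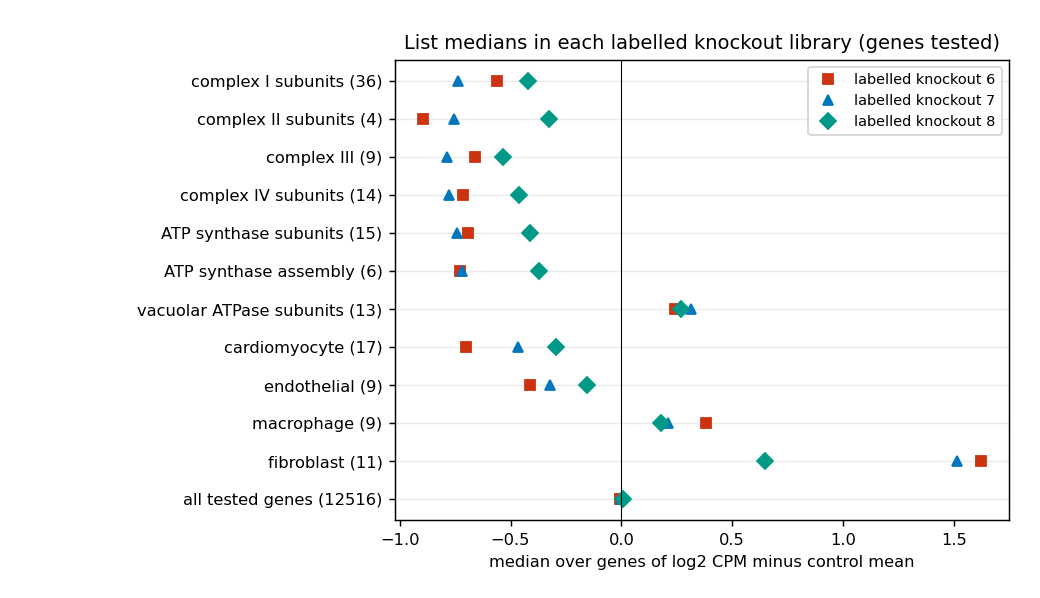
Each point is the median over the genes of a list of their log2 CPM in a labelled knockout library minus the control mean, with the number of genes tested in brackets. The respiratory complexes lie between -0.89 and -0.33 and the cardiomyocyte genes between -0.70 and -0.29, the vacuolar ATPase lies above 0, and fibroblast genes reach 1.62, while all tested genes stay within 0.01 of 0.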

How the data were processed

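The authors deposited 1 table of log2 CPM per gene, per the file headers, with 1 column per library, and no column was left unused. The genome build was mm10, and the tools listed are HISAT2, edgeR and CASAVA, with no version, per the submitters' processing notes. The lowest value was -3.29 log2 CPM in each library, which implies a pseudocount added by the authors. Steps between low values gave the worth of 1 read in each library, and at least 99.9% of 7594 genes with 1 transcript came out whole within 0.01 reads.

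The 12516 genes whose mean log2 CPM was 0 or more (1617 left out) were fitted in R 4.3.3 with limma 3.58.1, a group-means model with a trend, two-sided, with Benjamini-Hochberg adjustment over all of them at 0.05 and 4 residual degrees of freedom. The fit was also run on simulated data with equal spread in both groups, unlike that of the members, and no result above rests on it. Differences are labelled knockout minus control on the log2(CPM + pseudocount) scale. Gene pairs were compared by exact permutation of the 6 within-library ratios in scipy 1.17.1. Levels between genes were divided by transcript length from GENCODE, and sequences are from RefSeq promoters and GENCODE transcripts. All members are named, and of each list up to 4 genes with the smallest p by rule. Atpaf1 and Slc25a5 fall outside that rule, picked once their values had been seen. The members and lists were chosen with earlier results of these data known. Alternatives were other filters, a pseudocount of 1, median, quantile and cardiomyocyte-marker scaling, no trend, a robust trend, limma-voom on recovered reads, a threshold of 0.01, and each library left out.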

Additional observations from a re-analysis of the deposited data

How the results depend on the processing

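No paired analysis was possible because the replicate numbers (3, 4 and 5 against 6, 7 and 8) are not shared between the groups. With no filter, a mean of at least 3, log2(CPM + 1) or median-centred libraries, the counts of genes that fell in complexes II, III and V did not change, while with no filter 25 genes of complex I fell against 28 and 9 of complex IV against 10. Limma-voom gave 3 of complex II, 7 of complex III and 15 ATP synthase genes. Fitted with no trend, 121 of all genes were called against 1209, 0 members fell (29 at an unadjusted p under 0.05) and Atpif1 (0.71, adjusted p = 0.098) and Cycs (-0.79, adjusted p = 0.089) did not pass. At 0.01 the counts were 432 genes, 0 of complex II, 3 of complex III and 5 of ATP synthase, and Atpif1 (0.71) did not pass. Quantile normalization left 6 ATP synthase genes. Centring on the cardiomyocyte genes called 3617 genes (171 lower, 3446 higher), 0 of complex II, 0 of complex III and 0 of ATP synthase, with Cycs at -0.33 (adjusted p = 0.18), and turned Atp5s (0.17), Sdhaf2 (0.11), Sdhaf4 (0.18) and Sdhd (0.10) upward, though below the median of all genes. That the centring lifts all genes by construction is part of this, since the markers themselves were 0.46 lower.

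With 1 library left out, 407 to 2176 genes were called, 0 to 4 of complex II, 0 to 8 of complex III and 2 to 15 of ATP synthase. Atpif1 ranged from 0.57 to 0.83 and Cycs from -0.87 to -0.64. The Cycs to Cyc1 ratio ranged from -0.24 to 0.037, turning to 0.002 without control 4 and 0.037 without library 8, and the Sdhb to Sdha ratio from -0.045 to 0.070, turning to -0.045 without library 6, both within the spread. The cause of the changes on leaving out a control was not tested.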
